A study of Mus musculus with 6 samples.

Results

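The AP-1 and Egr group of immediate-early transcription factors, Fos, Fosb, Fosl1, Fosl2, Jun, Junb, Jund, Atf3, Egr1 and Ier2, were followed through the 6 libraries of the series. They were chosen by symbol, 10 of the 55367 gene symbols listed in every library, and all 10 passed the filter on low values. Fos and Jun proteins pair through leucine zippers to form AP-1, which binds the TGACTCA element, and Atf3 can pair with Jun proteins at AP-1 or CRE elements. Egr1 is a zinc-finger factor of GC-rich elements, and Ier2 is a nuclear protein encoded by an immediate-early gene. Such genes are induced within minutes by growth factors, stress, cAMP or tissue handling, through SRF, ternary complex factors and CREB at their promoters, and their RNAs are short-lived. CREB, a cAMP-responsive factor that the title of the series names, is a known activator of Fos, Junb and Egr1.

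RNA-seq covered DBA-positive tubular epithelial cells of the mouse kidney at the time point labelled Day115, with 2 libraries in each of 3 groups. WT mice carried the WT genotype and received saline, ADPKD mice were Pkd1-/- and received saline, and ADPKD+MMPP mice were Pkd1-/- and received MMPP, a manganese-chelated, PEG-coated melanin-like nanoparticle given by repeated injection. The comparisons ask how loss of Pkd1, the gene of polycystin-1, changes the cells' RNA and how MMPP changes it in the mutant. DBA is a plant lectin that binds collecting duct epithelium. Pkd1 was deleted in Pkd1 fl/fl;Cre/Esr1+ mice by a tamoxifen-inducible Cre, and neither the promoter that drives Cre nor whether WT mice carried it is given in the sources used here. The kidneys were minced, digested with enzymes and incubated with lectin and beads before RNA was taken, a handling that all groups share, although 1 line of the labels speaks of whole-kidney RNA. Nothing states that replicates were separate animals, so p-values measure only the spread between these samples.

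Pkd1 was at 17.7 and 17.2 FPKM (fragments per kilobase of gene and per fixed number of fragments in the library) in WT, 7.64 and 8.91 in ADPKD, and 4.34 and 3.99 in ADPKD+MMPP. The reads behind the FPKM values, estimated from their single-read steps, were 30.6 to 33.1 M in WT and ADPKD but 10.9 to 11.8 M in ADPKD+MMPP. The estimate takes the commonest low value to stand for 2 reads and does not give the number of reads sequenced. Odd read numbers made up 37.5% to 39.2% of low values in WT and ADPKD and 8.31% to 8.86% in ADPKD+MMPP. This difference in how the values came about and the treatment cannot be told apart, and it touches every comparison with the ADPKD+MMPP libraries. Among markers, summed principal cell FPKM spanned 2074 to 2772 in WT, 934 to 2462 in ADPKD and 5414 to 5438 in ADPKD+MMPP, with 6 of the 7 markers detected in every library and Avpr2, the vasopressin receptor, at no more than 0.0587 FPKM anywhere and listed at 0 in ADPKD replicate 2. The fewest reads behind a value were 377, for Fosl1 in an ADPKD+MMPP library, and every other factor had at least 6377 reads in every library.

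Several of the 10 factors were among the most abundant RNAs of the WT cells. Junb ranked 1 by FPKM in both WT libraries and Fos ranked 2, Jun ranked 5 and 6, Fosb ranked 7 in both, and Atf3 ranked 12 and 10. Fosl2 ranked 218 and 256, and Fosl1, the least abundant of the 10, ranked 3929 and 2621. Together the 10 genes held 3.79% and 3.92% of all FPKM in WT. That share was 2.13% and 1.61% in ADPKD and 2.56% and 2.60% in ADPKD+MMPP. In WT the order was Junb, Fos, Jun, Fosb, Atf3, Egr1, Jund, Ier2, Fosl2 and Fosl1, and no neighbours in it overlapped between libraries. In ADPKD, Junb stayed first but Fosb, Jun, Atf3 and Fos followed with overlapping neighbours, and Fos went from the second to the fifth place. In ADPKD+MMPP the order began Junb, Fos, Jun and Ier2, with overlap between Atf3 and Jund and between Egr1 and Fosb.

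**Figure D1:**
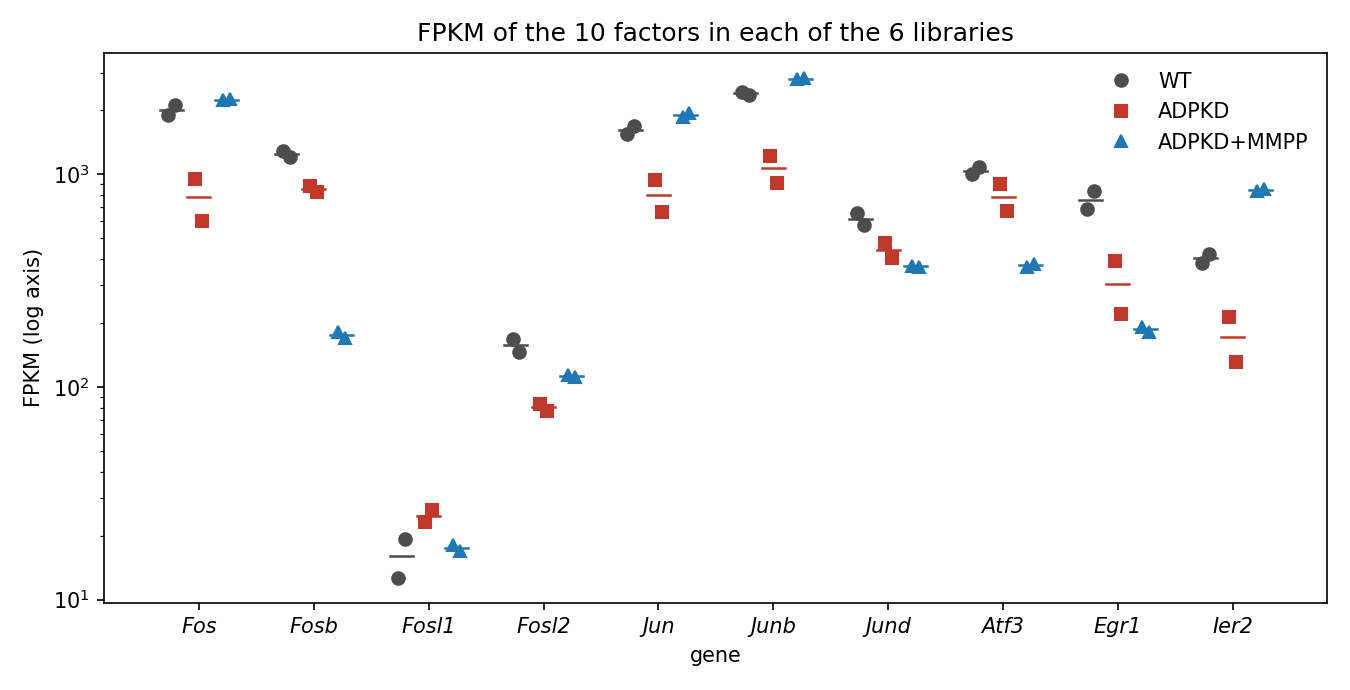
FPKM (log axis) of each of the 10 factors, with a point for each library and a bar at the mean of each group (circles WT, squares ADPKD, triangles ADPKD+MMPP). For 9 of the 10 genes the squares lie below the circles, and for Fosl1, the lowest of the 10, above them.

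The promoters that carry the cAMP-response letters TGACG are shown because CREB binds this element and the title of the series names its activity. RefSeq promoters on GRCm38.p6 were found for 7 of the 10 genes, all but Fosl1, Egr1 and Ier2. For Jund the bases scanned end at 70697738 and the gene as placed here begins at 70698949, so they do not adjoin it. For Fosl2 (32136222 to 32136471) and Atf3 (191183334 to 191183583) the bases scanned lie inside the gene as placed here. In the 250 bases before the start, on either strand, TGACG occurred in Fos, Fosb, Junb and Atf3, 4 of 7, against 17.8% of 32851 promoters. The full palindrome TGACGTCA, which contains TGACG, was in 0 of 7 and in 1.55% of all promoters, and the AP-1 letters TGACTCA were in 0 of 7 and in 4.46%. The Egr letters GCGTGGGCG or GCGGGGGCG were in Fosb and Fosl2, 2 of 7 and 3.06% of all promoters, TATAAA was in Fos alone of the 7 and in 12.4%, and the CArG box of SRF was in 0 of 7 and in 1.47%. The last 150 bases before the start are given 5′ to 3′ on the strand of the gene, with TGACG (or CGTCA, the same letters on the other strand) and the Egr letters in capitals.
Fos, chr12:85473740-85473889, plus strand: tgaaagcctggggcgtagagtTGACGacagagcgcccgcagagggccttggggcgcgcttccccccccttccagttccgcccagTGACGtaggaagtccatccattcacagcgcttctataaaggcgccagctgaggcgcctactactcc
Fosb, chr7:19310046-19310195, minus strand: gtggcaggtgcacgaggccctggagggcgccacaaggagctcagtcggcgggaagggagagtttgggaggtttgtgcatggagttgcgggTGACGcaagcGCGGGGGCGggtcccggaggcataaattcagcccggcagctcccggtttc
Junb, chr8:84978749-84978898, minus strand: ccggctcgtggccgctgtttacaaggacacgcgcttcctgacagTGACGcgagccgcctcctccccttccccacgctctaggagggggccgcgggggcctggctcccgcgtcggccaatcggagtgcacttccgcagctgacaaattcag
Atf3, chr1:191183334-191183483, minus strand: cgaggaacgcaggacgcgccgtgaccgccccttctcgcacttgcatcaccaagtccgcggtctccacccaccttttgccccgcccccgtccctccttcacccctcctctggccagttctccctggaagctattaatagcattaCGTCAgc
Counted back from the start, the Fos matches began at -129 and -66, that of Fosb at -60, that of Junb at -106 and that of Atf3 at -7. The Atf3 match lies inside the first exon of a transcript that GENCODE vM21 starts slightly upstream. These are matches of letters in a window, and binding was not measured in these data. Bases further upstream were not scanned, so a count of 0, as for the CArG box, does not mean that a gene lacks the element.

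In ADPKD cells most of these factors were lower than in WT cells. On log2(FPKM + 1) with limma, at a fold of at least 1.5 and an unadjusted p under 0.05, 6 of the 10 fell, Fos, Fosl2, Jun, Junb, Egr1 and Ier2, and Fosl1 rose. Among the 14862 genes tested, 12.5% were called lower and 14.2% higher, 26.7% in all. The median change of the 10 genes was -0.998 on the log2 scale, against 0.03 over all genes tested. By adjusted p (threshold 0.05) with the same fold, the 6 falls were called and the rise of Fosl1 was not, with 22.5% of all genes called. All 10 genes had groups that did not overlap between the libraries, 9 of them lower in ADPKD and 1 higher, where 67% of all genes tested had such groups, 31.5% lower and 35.5% higher. In bulk RNA, fewer cells of a type and less RNA per cell cannot be told apart.

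Fos, the founding AP-1 subunit, lies on chromosome 12 from 85473890 to 85477273. Its level was 1907 and 2120 FPKM in WT and 953 and 604 in ADPKD, so that both ADPKD libraries were below both WT libraries. The means were 2014 ± 151 and 778 ± 247 FPKM (SD, n = 2), a log2 change of -1.41 (SE 0.23, limma adjusted p = 0.0105), or a 2.65-fold decrease. Fosb lies on chromosome 7 from 19302696 to 19310051 and gives full-length and shortened FosB proteins. It had 1287 and 1207 FPKM in WT and 881 and 829 in ADPKD. Its libraries kept apart as well, but its fold of 1.46 missed the threshold (log2 -0.54, SE 0.12, limma adjusted p = 0.0239).

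Fosl2 encodes Fra-2, a Fos protein without the strong activation domain of Fos, on chromosome 5 from 32135801 to 32157842. It had 169 and 146 FPKM in WT and 83.1 and 77.3 in ADPKD. Among the called falls this was the most even within ADPKD, with 80.2 ± 4.11 FPKM there and 157 ± 16.1 in WT (SD, n = 2) and a log2 change of -0.96 (SE 0.13, limma adjusted p = 0.0065). Fosl1 encodes Fra-1, which is itself an AP-1 target gene, on chromosome 19 from 5447547 to 5455946. It was the only factor of the 10 that was higher in ADPKD, with 12.7 and 19.2 FPKM in WT and 23.2 and 26.5 in ADPKD. Its log2 change of 0.63 (SE 0.21) had a limma adjusted p of 0.0753 and was 0.35 without WT replicate 1 and 0.54 without ADPKD replicate 2, below the call in both cases. Fosl1 overlaps Ccdc85b on the opposite strand, and whether counting used strand is not given in the sources used here.

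Jun, the AP-1 subunit that can also pair with itself, is a single-exon gene on chromosome 4 from 95049034 to 95052222 and overlaps the antisense gene Junos. It had 1544 and 1694 FPKM in WT and 935 and 665 in ADPKD, a log2 change of -1.03 (SE 0.19, limma adjusted p = 0.014). Junb, a Jun protein that can restrain Jun, lies on chromosome 8 from 84974484 to 84978718 and overlaps Prdx2. It had 2432 and 2372 FPKM in WT and 1221 and 910.3 in ADPKD. With means of 2402 ± 42.6 and 1066 ± 219.9 FPKM (SD, n = 2), Junb was 2.28-fold lower (log2 -1.19, SE 0.17, limma adjusted p = 0.00719). Jund, the Jun gene that resting cells express steadily, is a single-exon gene on chromosome 8 from 70698949 to 70700616 and overlaps Gm11175. It moved less than Jun and Junb, with 656 and 575 FPKM in WT and 473 and 405 in ADPKD, and was not called (log2 -0.49, SE 0.14, limma adjusted p = 0.052).

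Atf3, a stress-induced factor of the ATF family that often represses its targets, lies on chromosome 1 from 191170296 to 191218039. It overlaps Gm24748 on the opposite strand. It had 1003 and 1079 FPKM in WT and 897 and 672 in ADPKD and was not called (log2 -0.42, SE 0.17, limma adjusted p = 0.119). Egr1 lies on chromosome 18 from 34859823 to 34864984. It had 689.6 and 832 FPKM in WT and 391 and 221 in ADPKD. Egr1 was thus 2.57-fold lower, with a log2 change of -1.36 (SE 0.28, limma adjusted p = 0.0201), and its ADPKD libraries stood further apart than those of any other factor. Ier2 is a single-exon gene on chromosome 8 from 84661331 to 84662852. It had 382 and 423 FPKM in WT and 213 and 131 in ADPKD, a log2 change of -1.26 (SE 0.24, limma adjusted p = 0.0159). Of the called genes, Fos, Egr1, Ier2, Junb and Jun had the larger falls and Fosl2 the smaller.

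The ADPKD replicates stood apart in several of these genes. In ADPKD replicate 1, 9 of the 10 factors were higher than in replicate 2, against 52.9% of all genes tested, and Fosl1 was the exception at a ratio of 0.874. The ratio of replicate 1 to replicate 2 was 1.77 for Egr1, 1.63 for Ier2, 1.58 for Fos, 1.41 for Jun, 1.34 for Junb and 1.33 for Atf3, but 1.06 for Fosb and 1.08 for Fosl2. The median absolute difference between the ADPKD replicates was 0.42 on the log2 scale for the 10 genes and 0.25 for all genes tested, whereas it was 0.15 and 0.13 in WT and 0.04 and 0.11 in ADPKD+MMPP. The median log2 change of the 10 factors against WT was -1.15 without ADPKD replicate 1 and -0.85 without ADPKD replicate 2. Over all genes tested it was 0.01 and 0.05. The falls of Fos, Jun, Junb, Egr1 and Ier2 were called in all 18 alternatives run, and that of Fosl2 in all but the fold threshold of 2.

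**Figure D2:**
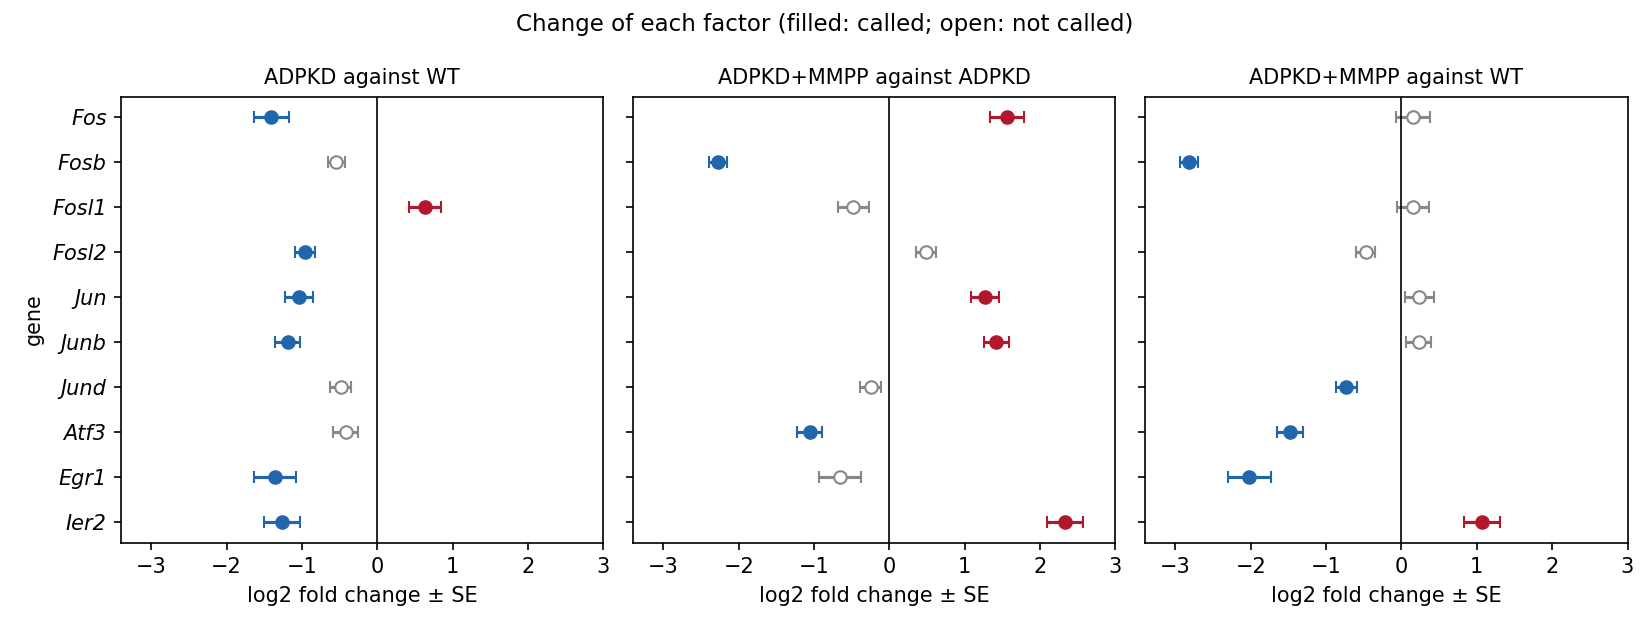
Log2 fold change with its SE (horizontal axis) of each factor in the 3 comparisons, filled where called and open where not. In ADPKD against WT the filled points lie on the lower side except Fosl1, and in ADPKD+MMPP against ADPKD they split between Fos, Jun, Junb and Ier2 (higher) and Fosb and Atf3 (lower).

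After MMPP the 10 factors moved in opposite directions. Of the 10, 4 rose against ADPKD, Fos, Jun, Junb and Ier2, and 2 fell, Fosb and Atf3. Most genes were called in this comparison, 70.9% of all tested, with 27.9% higher and 43% lower, so the count of 6 among 10 is near the background. With the adjusted p in place of the unadjusted one, the same 6 were called, and 70.3% of all genes. The median change was 0.12 for the 10 genes and -0.36 on the log2 scale for all genes tested, and the latter lay between -0.55 and 0.10 under the other scalings of the libraries. The 10 genes had no overlap between these groups, with 5 higher after MMPP and 5 lower, and the same held for 87.8% of all genes tested, 36.1% higher and 51.7% lower. The ADPKD libraries enter this comparison and the one with WT, so the directions of both are not independent.

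The change after MMPP followed gene structure across all genes, and it is therefore given beside a measure of structure, the percentage of exon bases that belong to no more than 1 transcript of the gene. For protein-coding genes the median log2 change ran from -1.70 where that share was under 5% to 1.09 where it was over 95%. The same medians lay between -0.05 and 0.09 for ADPKD against WT. The share was 100% for Jun, Junb, Jund and Ier2, 79.0% for Fosl2, 78.0% for Fosl1, 63.5% for Fos, 39.6% for Fosb, 32.3% for Egr1 and 18.7% for Atf3. As an alternative, each library was centred on the genes of like share, and these values are called centred values here. They are relative to genes of like structure and say nothing of the absolute level.

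**Figure D3:**
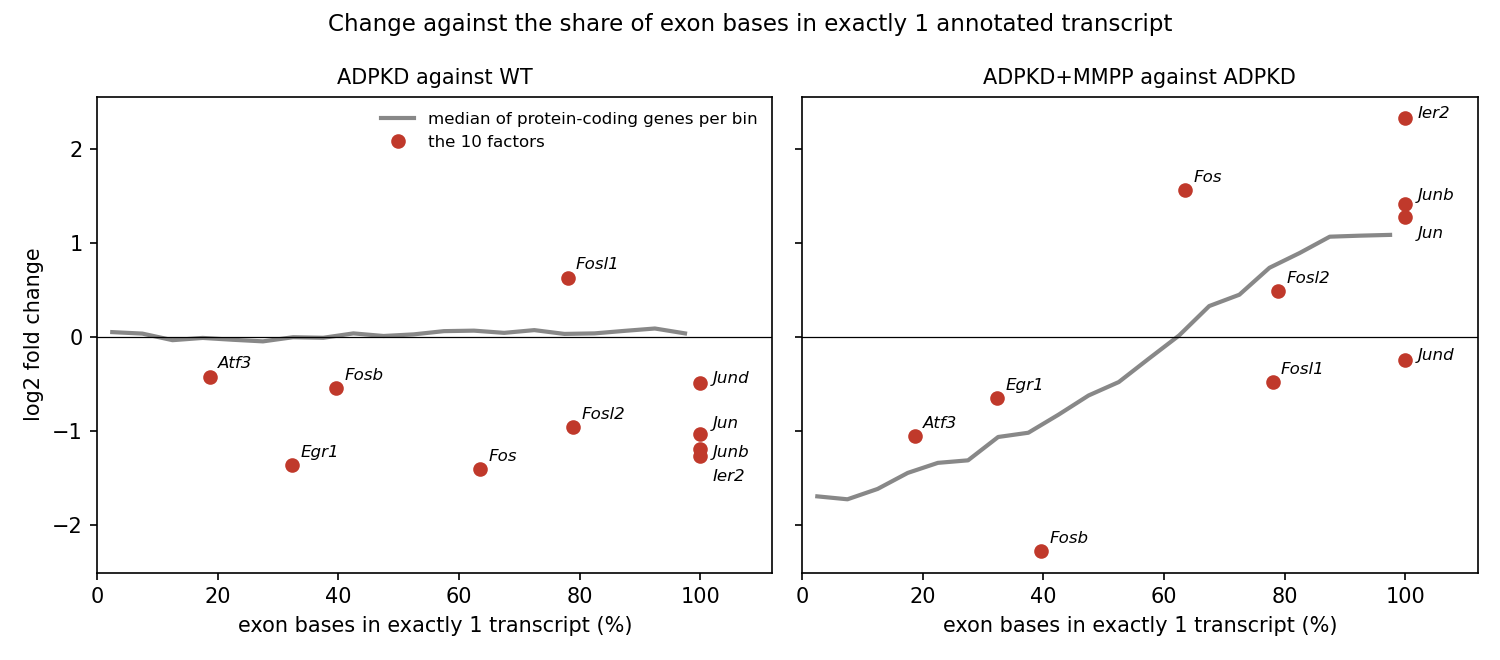
Log2 fold change of the 10 factors (points) against the percentage of exon bases found in a single transcript, with the median of protein-coding genes in each of 20 bins as a line. The line is flat for ADPKD against WT and climbs from -1.70 to 1.09 after MMPP, where Fos, Ier2, Atf3 and Egr1 lie above it with called centred changes and Fosb, Fosl1 and Jund lie below it with called centred changes.

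Fos had 2228 and 2253 FPKM after MMPP, above both ADPKD libraries. Its log2 change against ADPKD was 1.56 (SE 0.23, limma adjusted p = 0.00136), a 2.95-fold increase, and its centred change was 1.67. Fosb had 182 and 169 FPKM after MMPP, against 881 and 829 in ADPKD. It was 4.85-fold lower (log2 -2.28, SE 0.12, limma adjusted p = 3.97e-05), and lower also by the centred value of -1.08. Fosl2, at 114 and 111 FPKM, was above its ADPKD libraries but not called (log2 0.49, SE 0.13, limma adjusted p = 0.0151), and its centred change was -0.18. Fosl1, at 18.0 and 17.0 FPKM, was not called (log2 -0.48, SE 0.21, limma adjusted p = 0.0789) and had a centred change of -1.15 that was called.

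Jun had 1867 and 1952 FPKM after MMPP, 2.42-fold above ADPKD (log2 1.27, SE 0.19, limma adjusted p = 0.00139). Junb had 2805 and 2837 FPKM, 2.67-fold above ADPKD (log2 1.42, SE 0.17, limma adjusted p = 0.000559). Both libraries exceeded both ADPKD libraries for either gene, yet the centred changes were 0.15 for Jun and 0.30 for Junb, and neither was called. Quantile normalization, at 0.42 for Jun and 0.24 for Junb, was the other alternative of 18 that ended these calls. Jund had 371 and 366 FPKM after MMPP and was not called (log2 -0.25, SE 0.14, limma adjusted p = 0.153). Its sign turned to 0.07 under median-of-ratios scaling and 0.09 under trimmed-mean scaling, while its centred change was -1.37 and called. Jun, Junb and Jund share the same structure value of 100%, although Junb has 2 annotated transcripts and Jun and Jund have 1 each. An equal value need not remove the difference in how the ADPKD+MMPP values came about. The ratio of Jund to Jun was 0.425 and 0.339 in WT, 0.506 and 0.608 in ADPKD, and 0.199 and 0.187 after MMPP.

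Atf3 had 368 and 378 FPKM after MMPP, 2.08-fold below ADPKD (log2 -1.06, SE 0.17, limma adjusted p = 0.0019), but its centred change was 0.82 and called higher. Egr1 had 192 and 181 FPKM after MMPP, below both ADPKD libraries, and was not called (log2 -0.65, SE 0.28, limma adjusted p = 0.0754), while its centred change was 0.74 and called higher. The Egr1 change was -0.24 without ADPKD replicate 1 and -1.06, past the call, without ADPKD replicate 2. Ier2 had 832 and 856 FPKM after MMPP, 5.03-fold above ADPKD, the largest rise of the 10 (log2 2.33, SE 0.24, limma adjusted p = 0.000336), and its centred change of 1.21 was called too. Among centred values 7 of the 10 were called, Fos, Ier2, Atf3 and Egr1 higher and Fosb, Fosl1 and Jund lower, against 58.4% of 12374 protein-coding genes, 34.2% higher and 24.3% lower. Only the rise of Ier2 and the fall of Fosb were called in all 18 alternatives, with Ier2 between 1.21 and 2.68 and Fosb between -2.83 and -1.08, and Fos was called in 17, its exception being quantile normalization at 0.70.

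Set against WT, the ADPKD+MMPP libraries were called higher for Ier2 and lower for Fosb, Jund, Atf3 and Egr1, 5 of the 10, where 73.9% of all genes tested were called, 30.1% higher and 43.8% lower. The adjusted p called the same 5 genes, and 73.4% of all genes. For 9 of the 10 genes the libraries were apart from those of WT, 4 higher and 5 lower, against 91.9% of all genes tested, 38.9% higher and 53% lower. Fosb was 7.06-fold lower (log2 -2.82, SE 0.12, limma adjusted p = 2.16e-05) and Egr1 4.05-fold lower (log2 -2.02, SE 0.28, limma adjusted p = 0.001). Atf3 was 2.79-fold lower with a log2 change of -1.48, but its centred change was 0.51, and Jund was 1.66-fold lower with a log2 change of -0.73, a call that ended under median-of-ratios (-0.48) and trimmed-mean scaling (-0.42). Ier2 was higher (log2 1.07, SE 0.24, limma adjusted p = 0.00739), with a centred change of -0.20. Fos, Jun and Junb were above both WT libraries by log2 changes of 0.16, 0.24 and 0.23 that were not called, and their signs turned under common-sum and quantile scaling, those of Jun and Junb also after centring. Fosl2 was at -0.47 and Fosl1, whose libraries overlapped those of WT, at 0.15, and neither was called. The falls of Fosb and Egr1 were called in all 18 alternatives of this comparison.

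The composition of the AP-1 families gave a view that does not depend on the scale of a library. Fos made up 56.5% and 60.7% of the summed FPKM of the Fos family in WT, 49.1% and 39.3% in ADPKD, and 87.6% and 88.3% after MMPP. Fosb made up 38.1% and 34.6% in WT, 45.4% and 54.0% in ADPKD, and 7.15% and 6.64% after MMPP. The ratio of Fosb to Fos was 0.675 and 0.569 in WT and 0.925 and 1.37 in ADPKD, so Fosb exceeded Fos in 1 of the ADPKD libraries alone. Fosl1 stayed under 2% of the family in every library. In the Jun family Junb was the largest throughout, with 52.5% and 51.1% in WT, 46.4% and 46.0% in ADPKD and 55.6% and 55.0% after MMPP. Jund was 14.2% and 12.4% of the family in WT, 18.0% and 20.4% in ADPKD and 7.36% and 7.10% after MMPP. The Jun to Junb ratio kept between 0.635 and 0.766 in all 6 libraries. An exact permutation test of 2 libraries against 2 cannot give a two-sided p under 0.333, so these shares are descriptions, and Fos and Fosb differ in gene structure.

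**Figure D4:**
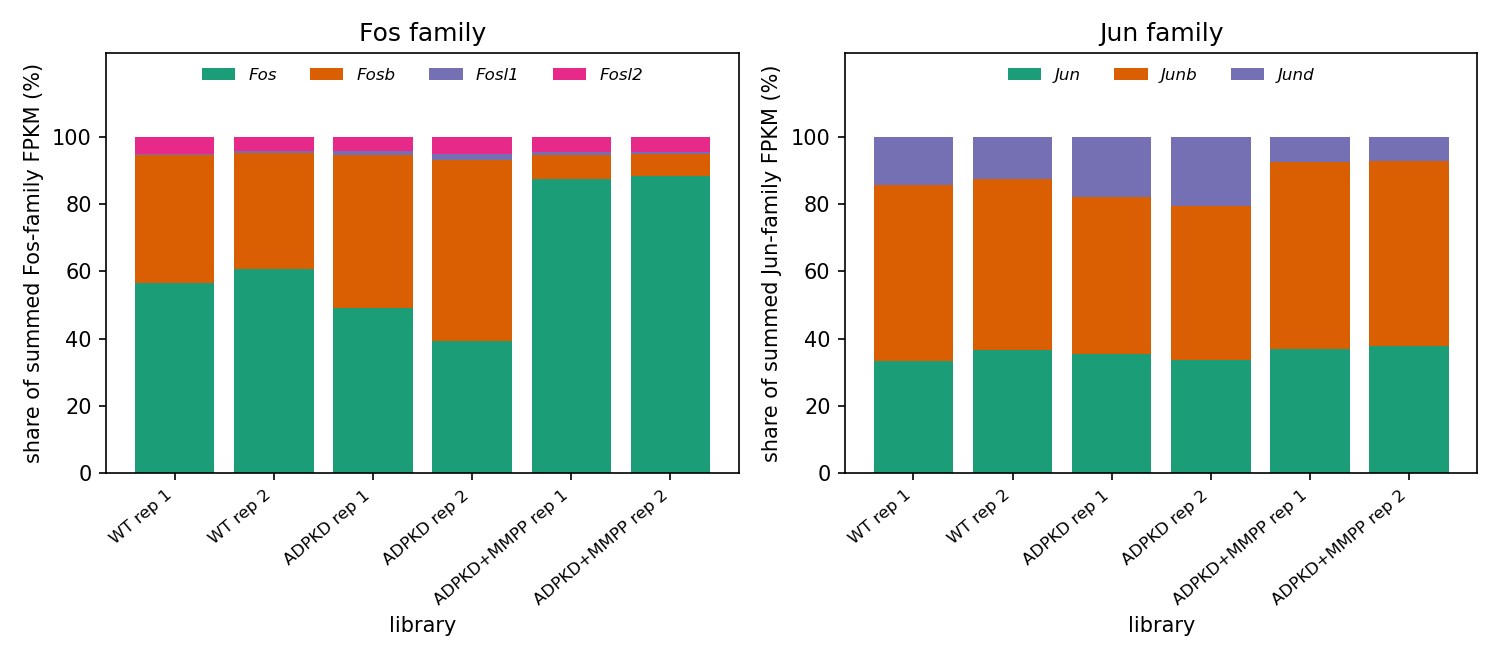
Share (percent) of the summed FPKM of the Fos family and of the Jun family held by each gene, 1 bar for each library. Fos holds 39.3% to 60.7% of its family in WT and ADPKD and 87.6% to 88.3% after MMPP, and Junb is the largest of the Jun family in all 6 libraries.

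Other ratios set the factors against each other. Egr1 to Fos was 0.362 and 0.392 in WT and 0.410 and 0.366 in ADPKD, so both genes were lower in ADPKD by a like factor, and it was 0.0860 and 0.0805 after MMPP. Atf3 to Jun was 0.650 and 0.637 in WT, 0.959 and 1.01 in ADPKD, and 0.197 and 0.194 after MMPP. Ier2 and Junb have the same structure value but 1 and 2 annotated transcripts. The ratio of Ier2 to Junb was 0.157 and 0.178 in WT, 0.175 and 0.144 in ADPKD, and 0.297 and 0.302 after MMPP. Likeness of profiles was measured on log2(FPKM + 1) set to each gene's own mean over the 6 libraries, without the centring on genes of like structure. On this scale Jun and Junb were the nearest of all pairs of the 10, with a root mean square difference of 0.09, followed by Fos and Junb at 0.13 and Fos and Jun at 0.17.

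Genes with a mean FPKM of at least 5 in some group numbered 9439, the 10 factors included. Outside the 10 factors, the profile nearest to Fos was that of Ier5l. This gene had 84.4 and 93.6 FPKM in WT, 44.1 and 28.9 in ADPKD, and 102 and 110.4 after MMPP. Its root mean square difference from Fos over the 6 libraries was 0.06, and Dmrt2 (0.09) and Ppm1f (0.11) followed. Nearest to Jun were Gadd45g (0.10), a stress-response gene of the Gadd45 family, Syde1 (0.11) and Samd14 (0.11). Nearest to Egr1 were Calca (0.13), Slfn5 (0.17) and Tecpr1 (0.17). Ier5l and Gadd45g also stand in the list of other immediate-early genes below.

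Genes of the same pathway were described by lists. Of 24 other immediate-early genes, 9 fell and 2 rose in ADPKD, with a median log2 change of -0.48. After MMPP 10 rose and 8 fell, and 5 were higher and 3 lower after centring, with a centred median of -0.10. As with the 10 factors, the called share of this list and of those that follow is to be read against the 70.9% of all genes called after MMPP (58.4% after centring). Dusp1, a phosphatase that inactivates MAP kinases, had 1041 and 979 FPKM in WT, 513 and 425 in ADPKD, and 58.2 and 53.6 after MMPP. It fell by 1.11 on the log2 scale in ADPKD and by 3.04 after MMPP (SE 0.14 for both, centred -1.85 after MMPP). Zfp36, which promotes decay of AU-rich mRNAs, had 905 and 859 FPKM in WT, 682 and 417 in ADPKD and 276 and 250.4 after MMPP, with called changes of -0.72 and -1.02, the latter with a centred value of -0.19. Ier3, a survival factor, was at -0.57 in ADPKD, not called, and rose by 1.68 after MMPP, with a centred value of 0.56. Klf4 was not called in either comparison, at -0.07 and -0.09. Klf6 was at 0.51 and 0.55, without a call, and Ccn1, a matricellular protein, at 0.14 and 1.002, of which the second was called but had a centred value of -0.12.

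The other Egr factors and their Nab corepressors held 1 called gene of 5 in ADPKD, Nab2, a corepressor that Egr1 itself induces, which fell (log2 -0.64). Egr2 was at 0.34 and Egr3 at -0.50. After MMPP Egr3 and Nab1 fell, by 2.17 and 1.29 on the log2 scale, and Egr4 rose by 2.14. Egr4 was under 1 FPKM in every WT and ADPKD library and was tested only because ADPKD+MMPP was higher. Its rise therefore carries no weight, here or among the centred values. After centring 4 of the 5 were called higher, Egr2 at 1.39, Egr4 at 1.01, Nab1 at 0.61 and Nab2 at 1.79, and Egr3, at -0.27, was not called. Of 10 further AP-1 partners and small Maf proteins, 3 fell in ADPKD, with a median of -0.27, and none rose. After MMPP 6 fell and 2 rose, and after centring 4 were lower and 3 higher. Jdp2, a repressor that pairs with Jun, had 29.4 and 30.3 FPKM in WT and 12.2 and 24.1 in ADPKD (log2 -0.76), its 2 ADPKD libraries far apart. Batf3 was at -0.15 and Mafg at 0.48, neither called, and Atf2, which pairs with Jun at CRE elements, was at 0.26 and fell by 2.08 after MMPP with a centred fall that was called too.

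Of 20 MAPK and SRF inputs, the kinases and factors upstream of these promoters, 18 were not called in ADPKD and 1 changed in each direction, with a median of -0.03. After MMPP 5 rose and 9 fell, 14 of 20 and thus near the 70.9% of all genes, and after centring 5 were higher and 8 lower. Srf, the factor that binds the CArG box of Fos and Egr1, had 51.9 and 58.9 FPKM in WT, 47.4 and 45.2 in ADPKD and 105 and 116 after MMPP. It was not called in ADPKD (log2 -0.25) and rose after MMPP (log2 1.23, SE 0.13, centred 1.05). Elk1, a ternary complex factor, was at -0.10 and 0.83, with a centred value of -0.28 for the second. Mapk3, which encodes ERK1, had 71.9 and 63.2 FPKM in WT, 55.6 and 49.6 in ADPKD and 0.38 and 0.49 after MMPP, a log2 change of -5.23 (SE 0.13) after MMPP with a centred value of -3.61. Mapk8, which encodes JNK1, was at 0.41 and -0.88.

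Several textbook targets of AP-1 and Egr were higher in ADPKD. Of the 11 with at least 1 FPKM in all 6 libraries, 7 rose and 1, Vegfa, fell. With the filter used elsewhere 13 of 17 rose, but Timp1, Mmp3, Mmp9, Areg and Ereg, 5 of the 13, were under 1 FPKM in both WT libraries and were tested only because other groups were higher, so the larger count carries no weight. Plaur, the urokinase receptor and an AP-1 target, had 84.6 and 81.8 FPKM in WT and 138 and 204 in ADPKD (log2 1.002, SE 0.20). Timp1, a metalloproteinase inhibitor, had 0.52 and 0.98 FPKM in WT and 32.9 and 70.5 in ADPKD (log2 4.83, SE 0.38). Ccnd1, a cyclin, was at -0.20 and Hbegf, a growth factor of the EGF family, at 0.41, and neither was called. After MMPP 10 of the 17 fell and 3 rose, with a median of -1.73, and after centring 6 were lower and 3 higher, with a median of -0.32. Among them were Plaur at -2.58 (centred -1.19), Timp1 at -1.74 (centred 0.38), Ccnd1 at 1.88 (centred 0.94) and Hbegf at 0.94 (centred -0.17). Many of these genes are also expressed by macrophages and fibroblasts, and 7 of 7 macrophage markers rose in ADPKD, with sums of 59.3 to 60.8 FPKM in WT and 337 to 412 in ADPKD. Of these markers, Itgam was under 1 FPKM in both WT libraries and was tested only because ADPKD was higher, so its rise carries no weight. The part of macrophages and fibroblasts in the rise of the targets was not tested.

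**Figure D5:**
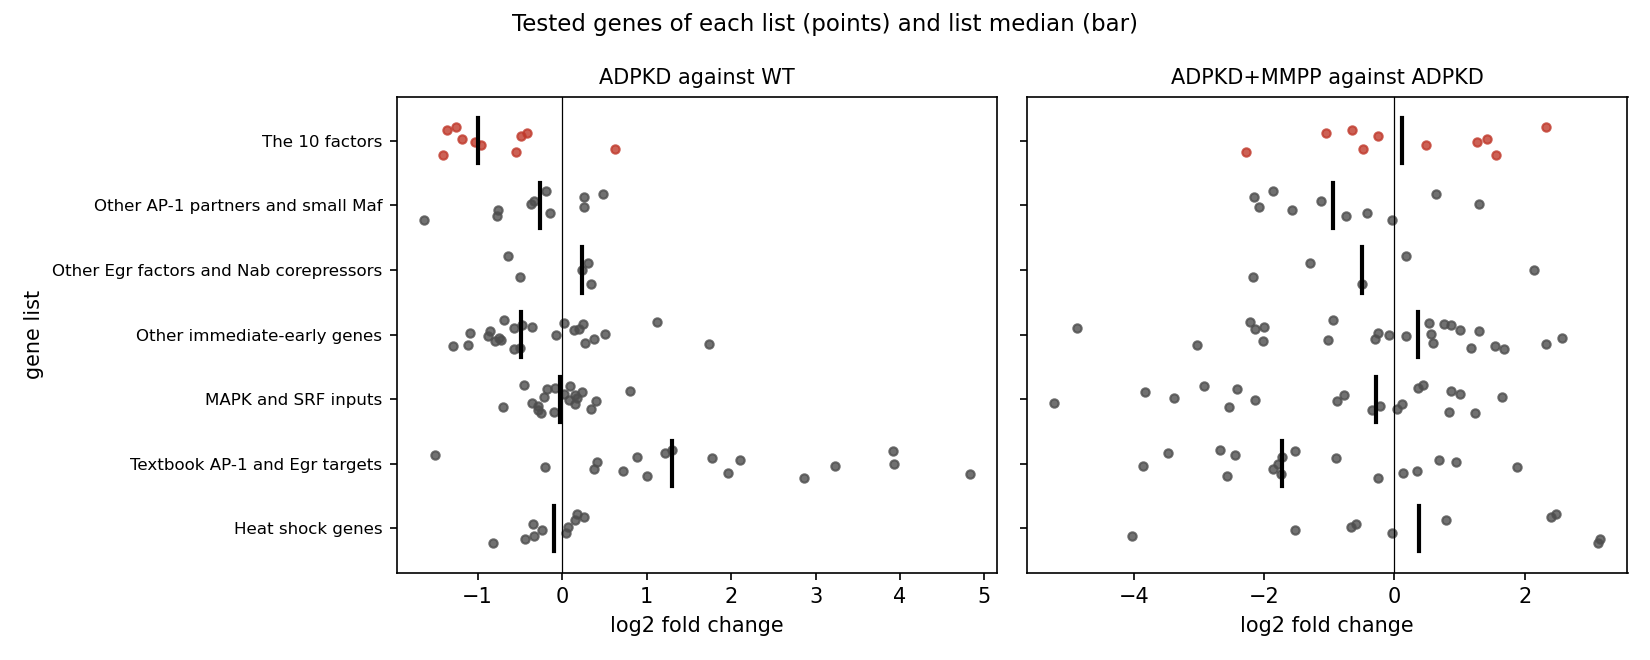
Log2 fold change of every tested gene (points) in the 10 factors and in each of 6 related lists, with the list median as a bar, for ADPKD against WT and ADPKD+MMPP against ADPKD. In ADPKD the median of the 10 factors is -0.998, the targets include 5 genes tested only through groups other than WT, and after MMPP every list spans both signs.

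Heat shock genes, which enzymatic digestion of tissue is known to induce along with Fos and Jun, were counted beside the factors. In ADPKD 1 of 10 fell and 9 were not called, with a median of -0.10. Hspa1a had 212 and 289 FPKM in WT, 163 and 121 in ADPKD and 1254 and 1217 after MMPP, and it fell in ADPKD (log2 -0.82). Hspa1b had 277 and 386 FPKM in WT, 257 and 226 in ADPKD and 2143 and 2187 after MMPP, without a call in ADPKD (log2 -0.44). After MMPP 5 of the 10 rose and 3 fell (6 higher and 1 lower after centring), and Hspa1a and Hspa1b rose by log2 changes of 3.13 and 3.16 (centred 2.01 and 2.04). Hspa8, among the 3 falls, had the largest change of the list, at -4.03 on the log2 scale (centred -3.21). Hspa1a and Hspa1b are near-identical copies, so the split of reads between them is uncertain. The part of tissue handling in the levels of the 10 factors was not tested.

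Markers of several cell types moved with the same groups. In ADPKD 6 of 6 intercalated cell markers fell, with sums of 223 to 233 FPKM in WT and 22.6 to 50.7 in ADPKD. All 5 endothelial markers fell, from 555 to 680.4 FPKM in WT to 257 to 268 in ADPKD, and so did 3 of 3 podocyte markers, from 782 to 1067 FPKM to 66.7 to 174. Fibroblast markers rose in 4 of 6 and fell in 1. Among the rises, Col1a1 and Col3a1 were under 1 FPKM in both WT libraries and were tested only because other groups were higher. After MMPP proximal tubule markers summed to 9524 to 9958 FPKM, against 1494 to 1610.4 in ADPKD and 676 to 840.2 in WT. Gpx3 alone had means of 8555, 1287 and 387 FPKM in the same order and so made up most of these sums in ADPKD and after MMPP. Of the 9 markers 7 rose after MMPP against ADPKD, while in ADPKD against WT 3 rose and 1 fell, with a median of -0.44. Cubn, among those 3, was under 1 FPKM in both WT libraries and was tested only because other groups were higher. Thick limb and distal tubule markers summed to 476 to 1247 FPKM in WT, 184 to 599 in ADPKD and 181 to 183 after MMPP. Neutrophil markers summed to at most 13.0 FPKM and T cell markers to at most 5.14 in any library, and Ly6g, which defines neutrophils, was listed at 0 in WT and ADPKD+MMPP. The macrophage sum after MMPP was 592 to 647 FPKM, of which C1qa, C1qb and C1qc made up most. Of the 7 macrophage markers these 3 rose against ADPKD and 4 fell, with a list median of -0.94 on the log2 scale and Itgam listed at 0. Itgam, among the 4, was tested only because ADPKD was higher, so its fall carries no weight. After centring 2 of the 7 were higher and 1 lower, and the rises of C1qa, C1qb and C1qc were no longer called. Csf1r was at -4.09 and stayed lower after centring (-2.71). Adgre1 was at -1.29 and Cd68 at -0.94, but both were called higher after centring, at 0.85 and 0.94. The part of these cells in the changes of the 10 factors was not tested.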

How the data were processed

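The authors aligned NovaSeq reads to GRCm38 (mm10) with HISAT2 2.1.0, counted them with featureCounts 1.6.0 and deposited FPKM values per gene symbol and library. The annotation release, the use of strand and the step from counts to FPKM are not given in the sources used here. The study tested counts with DESeq2, which FPKM do not allow. Genes that reached 1 FPKM in 2 or more libraries (14862 of 55367) were tested on log2(FPKM + 1), a scale that understates changes of low genes, with limma 3.58.1 in R 4.3.3, in 1 fit over the 6 libraries, with p-values adjusted by Benjamini-Hochberg. A call needed a fold of at least 1.5 and an unadjusted p under 0.05. Symbols were matched to GENCODE vM21 (53253 to exactly 1 gene) for positions and transcripts. FPKM times exon length gave single-read steps: 98.3% to 99.0% of values under 50 reads were whole within 0.05. Replicates were numbered by the labels.

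The 10 genes and all lists were chosen with earlier results of these data known. The genes named are the 10 factors, listed genes fixed by name whatever their values, Pkd1, and the 3 genes nearest in profile to each of Fos, Jun and Egr1. Further listed genes and markers are named where they qualify a count or a sum. Alternatives covered the pseudocount, filters, scaling, trend, groups in the fit, thresholds, a replicate block, leaving out each library, and centring within 20 bins of the share of exon bases in 1 transcript (protein-coding genes, at least 300 per bin). Protein-coding genes without centring were an alternative added after seeing the data. The limma call for ADPKD against WT was tested on simulated data, and the trimmed-mean and median-of-ratios scaling on a library multiplied by a known factor. Other steps were not tested in this way.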

Additional observations from a re-analysis of the deposited data

How the results depend on the processing

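With 2 libraries per group each mean rests on few samples, and where 1 library was left out the lone sample was assumed to vary like the other groups. Over 540 values of the 10 factors under the alternatives, 485 kept their direction and side of the threshold, 21 gained the call, 16 lost it and 18 reversed. Without 1 library, the median log2 change of the 10 factors in ADPKD against WT ranged from -1.15 to -0.85. In ADPKD+MMPP against WT 8 of the 10 factors were called under quantile normalization, all lower, where 69.7% of all genes tested were called. In ADPKD+MMPP against ADPKD, Jund was 0.066 under median of ratios and 0.093 under trimmed mean of M values, and centring by gene structure gave Fosl2 -0.18, Atf3 0.82 and Egr1 0.74. In ADPKD+MMPP against WT, a common sum gave Fos -0.24, Fosl1 -0.22, Jun -0.16 and Junb -0.16, quantile normalization gave Fos -1.59, Jun -0.68 and Junb -1.86, and centring gave Fosl1 -0.51, Jun -1.03, Junb -1.03, Atf3 0.51 and Ier2 -0.20. Fosl1 ranged from -0.13 to 0.43 there without 1 library. The cause of these reversals was not tested. Of all genes called after MMPP against ADPKD, 39.3% were higher, and 31.9% under a common sum, 46.5% under median of ratios, 47.1% under trimmed mean of M values, 53.9% under quantile normalization and 58.5% after centring.

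Libraries with the same replicate number shared little of their deviation from the group means. These deviations correlated across genes at 0.13 for WT and ADPKD, -0.01 for WT and ADPKD+MMPP and 0.01 for ADPKD and ADPKD+MMPP. With 2 libraries per group this cannot show whether same-numbered samples were handled together. With a replicate block 7, 6 and 5 of the 10 factors were called in the 3 comparisons, the counts found without it. Of all genes tested 27.3%, 71.3% and 74.3% were called with the block, in the same order.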
